A study of Mus musculus with 24 samples.

Results

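The 32 genes described here encode proteins of myelin and of the mature oligodendrocytes that make it, chosen by symbol from the 18240 genes of the deposited table. All 32 were found there, and all 32 passed the filter on low values. By role they make 7 classes: 11 structural myelin genes, 5 genes of myelin lipid and lipid handling, 3 transcription factors, 2 genes of newly formed oligodendrocytes, 4 signalling genes, 5 genes of supply, matrix and stress, and 2 genes of other membrane proteins.

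The values come from bulk RNA sequencing of prefrontal cortex of C57BL/6J mice at postnatal day 40. Of the 4 arms, 3 were Dyrk1a+/I48X heterozygotes (HT), with 1 copy of an allele named I48X of a kinase gene, and received lithium (a mood stabiliser), fluoxetine (a serotonin reuptake inhibitor) or vehicle. The last arm was wild type on vehicle (WT vehicle), so neither drug was given to wild-type mice in the libraries used here. Each arm had 6 libraries, 3 from males and 3 from females, and libraries are called by these and by the number in their label. The sources used here give neither dose nor length of treatment. The labels do not say that each library came from a separate animal, so p-values measure the spread between these samples, which may in part be technical.

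Oligodendrocytes wrap axons in many turns of flattened plasma membrane, which speeds conduction and supports the axon. A precursor that stops dividing first becomes a newly formed oligodendrocyte, then switches on the genes of compact myelin and of its galactolipids under the transcription factors SOX10 and MYRF. In the mouse frontal cortex this process continues through adolescence, the age sampled here.

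Promoters that hold words searched for those factors are shown first, and any link between these words and the levels was not tested. RefSeq promoter windows on GRCm38.p6 were on hand for 22 of the 32 genes, 34 windows in all. The 250 bases before each start were searched on both strands. The search words were CTGGNAC, called here the MYRF word, and ACAAAG or ACAATG, the SOX words. Since N was any base, the MYRF search took in CTGGAAC and CTGGGAC as well as CTGGCAC and CTGGTAC. A SOX word may share bases with a MYRF word, and the windows of 1 gene may overlap. The MYRF word stood in 11 of the 34 windows (32.35%), against 16.06% of 32851 windows of all genes. A SOX word stood in 18 (52.94%), against 25.24%, and both stood in 6 (17.65%), against 4.085%. Overlapping windows of Mag that hold the same words count in the 11, the 18 and the 6. Overlapping windows of Gal3st1 with the same SOX word count in the 18. The windows are therefore not separate counts. The 4 genes whose most upstream window holds both are printed, since they can be set beside their levels below, 5′ to 3′ on the strand of the gene, with every matched word, on either strand, in capitals:
Cnp (chr11:100574689-100574938, plus strand): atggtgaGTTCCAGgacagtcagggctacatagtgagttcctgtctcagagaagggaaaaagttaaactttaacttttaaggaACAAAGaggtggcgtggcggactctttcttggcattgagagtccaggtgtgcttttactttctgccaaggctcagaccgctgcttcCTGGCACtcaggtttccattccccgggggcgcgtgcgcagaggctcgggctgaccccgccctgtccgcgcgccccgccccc
Apod (chr16:31314809-31315058, minus strand): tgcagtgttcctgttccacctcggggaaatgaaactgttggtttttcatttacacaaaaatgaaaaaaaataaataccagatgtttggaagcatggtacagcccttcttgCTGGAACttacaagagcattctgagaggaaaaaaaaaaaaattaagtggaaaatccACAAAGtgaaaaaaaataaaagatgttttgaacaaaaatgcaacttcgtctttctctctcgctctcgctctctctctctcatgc
Mag (chr7:30914923-30915172, minus strand): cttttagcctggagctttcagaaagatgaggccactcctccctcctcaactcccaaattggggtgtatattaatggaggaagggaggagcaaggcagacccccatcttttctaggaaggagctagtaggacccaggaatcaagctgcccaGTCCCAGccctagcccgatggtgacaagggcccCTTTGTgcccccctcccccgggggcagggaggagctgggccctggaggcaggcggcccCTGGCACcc
Hapln2 (chr3:88027512-88027761, minus strand): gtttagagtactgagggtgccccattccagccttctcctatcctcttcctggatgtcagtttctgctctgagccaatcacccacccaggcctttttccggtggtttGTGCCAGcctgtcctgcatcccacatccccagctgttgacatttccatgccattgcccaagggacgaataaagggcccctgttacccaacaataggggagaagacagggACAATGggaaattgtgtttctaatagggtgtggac
Cnp and Mag each hold CTGGNAC 2 times, Cnp as CTGGAAC and CTGGCAC and Mag as CTGGGAC and CTGGCAC. Apod holds it only as CTGGAAC and Hapln2 only as CTGGCAC, read on the strand that matches. A match describes these letters and is not a bound site. Cnp, Mag and Hapln2 followed Mbp across libraries, as given further on, whereas Apod was not shown to.

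The recovered depth was 24133344 to 35940460 reads per library. Dyrk1a averaged 2447 in HT lithium, 2476 in HT fluoxetine, 2355 in HT vehicle and 2200.0 in WT vehicle libraries (log2 fold change of HT vehicle against WT vehicle 0.099 ± 0.037, limma adjusted p = 1), and since its count does not tell the alleles apart it gives no check of the genotype labels. The excitatory neuron gene Slc17a7 ran from 28907 to 53751 and Tbr1 from 1534 to 4879, so both were detected in every library. Some libraries stood apart in markers of neighbouring regions. The 6 libraries highest in olfactory bulb genes (bulb-high) were HT lithium male 1, HT fluoxetine male 1, HT fluoxetine female 1, HT vehicle male 3, HT vehicle female 2 and WT vehicle female 2. Drd2, a receptor gene of striatal neurons, was at 1379 in HT vehicle male 1 and 370.8 in WT vehicle female 1, and Ttr, a choroid plexus gene, at 3407 in HT vehicle female 1 and 780.9 in HT fluoxetine female 2. These 4 are called Drd2/Ttr-high. The 5 excitatory neuron genes averaged -0.86 to -0.44 in log2 deviation from their own means in the bulb-high libraries. They stood at -0.059 to 0.38 in the others, and the share of cortex in each library was not measured. Of the markers of Schwann cells, which make peripheral myelin, Prx ran from 8.6 to 31 and Ncmap from 3.16 to 20.9, while Drp2 was at 3123 to 4155 in all arms. Of the 7 libraries in the batch labelled P40_L2, 6 were all the lithium libraries and 1 was HT fluoxetine female 3, while the other 17 libraries were in P40_L1.

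Myelin genes were abundant in every library. Set per kb of exon so that genes can be compared, Mbp (ENSMUSG00000041607, chromosome 18, 82475146 to 82585637, plus strand, GRCm38), whose protein holds the cytoplasmic faces of the membrane together, averaged 4997 normalised reads per kb and ranked 150 among 18227 genes. Mobp (1833 per kb), Cnp (1459), Apod (1372), Mal (1336), Cldn11 (1246) and Car2 (1172) came next. At the low end stood Aspa (46 per kb), Prr5l (36.6) and Enpp6 (31.3). Outside the structural class, the gene highest per kb was Apod for lipid handling, Sox10 (265) for transcription, Bcas1 (548) for newly formed cells, Lpar1 (148) for signalling, Car2 for supply and Evi2a (144) for other membrane proteins.

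In what follows a gene's level is its normalised read count, given as the lowest, the median and the highest of the 6 libraries of an arm. Mbp was at 30802, 44617 and 54476 in HT lithium libraries, 31913, 38453 and 48411 in HT fluoxetine, 27534, 40608 and 61067 in HT vehicle and 31068, 40210.4 and 60835 in WT vehicle libraries. The arms overlapped over most of their range, and HT vehicle male 1 and WT vehicle female 1 were the highest of the 24 libraries. Mobp, a small basic protein of compact myelin, was at 8067, 13027 and 16388 in HT lithium libraries, 9653, 11333 and 15913 in HT fluoxetine, 7016, 11905 and 17819.9 in HT vehicle and 8597, 12369.6 and 19439.6 in WT vehicle libraries. Cnp, a phosphodiesterase of non-compact myelin, was at 4169.7, 5731 and 6771 in HT lithium libraries, 4069.8, 4429 and 6519 in HT fluoxetine, 4114, 5076 and 7509.8 in HT vehicle and 4311, 4934 and 7448 in WT vehicle libraries. The arms overlapped in both genes.

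Mag, the adhesion protein that faces the axon, was at 2304, 3299 and 4309.6 in HT lithium libraries, 2298, 2563 and 3624 in HT fluoxetine, 2260.2, 2825 and 4803 in HT vehicle and 2264, 2942 and 4775 in WT vehicle libraries. Mog, an immunoglobulin-like protein of the outer myelin surface, was at 773, 1123 and 1255 in HT lithium libraries, 726, 786 and 1126 in HT fluoxetine, 707, 939 and 1373 in HT vehicle and 789.9, 944 and 1325 in WT vehicle libraries. In both genes the medians ran highest in HT lithium and lowest in HT fluoxetine libraries, within ranges that overlapped. Cldn11, the tight junction claudin of myelin, ran from 1757 to 3279 over all 24 libraries, Mal, a proteolipid of membrane rafts, from 2577 to 5394, and Tspan2, a tetraspanin, from 1227 to 2434. Ermn, a cytoskeletal protein of mature oligodendrocytes, ran from 444 to 875, and Gjb1, a gap junction connexin, from 90.2 to 300.3. Opalin, a transmembrane protein of the paranodal loops, was at 236, 325 and 359.6 in HT lithium libraries, 169.5, 255 and 346 in HT fluoxetine, 201, 308 and 507 in HT vehicle and 218, 328 and 386 in WT vehicle libraries, with its lowest value in HT fluoxetine and its highest in HT vehicle libraries.

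Among the lipid genes, Ugt8a, the transferase that makes galactosylceramide, was at 769.5, 981 and 1203 in HT lithium libraries, 716, 813 and 1050.5 in HT fluoxetine, 686, 942 and 1117 in HT vehicle and 770.0, 887 and 1359.8 in WT vehicle libraries. Gal3st1, the sulfotransferase that turns it into sulfatide, was at 235, 279 and 318 in HT lithium libraries, 191, 239 and 246 in HT fluoxetine, 215, 244 and 287 in HT vehicle and 217, 244 and 326 in WT vehicle libraries. The 6 lithium libraries of Gal3st1 lay above the mean of the fluoxetine libraries, but the ranges overlapped. Fa2h, which hydroxylates the fatty acids of these lipids, was at 385, 581 and 726 in HT lithium libraries, 373, 454 and 615 in HT fluoxetine, 318, 497 and 749 in HT vehicle and 379.8, 539 and 862 in WT vehicle libraries. Aspa, which frees acetate from N-acetylaspartate, was at 199, 249 and 415 in HT lithium libraries, 224, 255 and 324 in HT fluoxetine, 208, 289.9 and 418 in HT vehicle and 200.1, 267 and 305 in WT vehicle libraries. Aspa had its highest median in HT vehicle libraries, unlike Fa2h, which had it in HT lithium libraries. Apod, a lipid-binding lipocalin, was at 2032, 2388 and 7037 in HT lithium libraries, 1982, 3547 and 8411 in HT fluoxetine, 1624, 2269 and 6346 in HT vehicle and 2032, 3000.5 and 5455 in WT vehicle libraries. It varied by a factor of 5.18 between the highest and the lowest library, the widest spread of the 32 genes, and all 6 of its highest values came from the bulb-high libraries.

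Sox10, needed throughout the lineage, was at 633, 780.4 and 1133 in HT lithium libraries, 617, 822 and 1025 in HT fluoxetine, 514, 777 and 1064 in HT vehicle and 598, 769.6 and 943 in WT vehicle libraries. Myrf, which switches on the myelin programme, was at 629, 866 and 1095 in HT lithium libraries, 621, 766 and 973 in HT fluoxetine, 622, 740.4 and 1209 in HT vehicle and 624, 821 and 1165 in WT vehicle libraries. Nkx6-2, a homeobox factor of myelinating cells, was at 111, 149.5 and 188 in HT lithium libraries, 83.2, 107 and 163 in HT fluoxetine, 96.6, 134 and 209 in HT vehicle and 96.2, 120.1 and 199 in WT vehicle libraries. The arms overlapped in all 3 factors, and the lowest Myrf and Nkx6-2 values were both from HT fluoxetine female 3. Of the newly formed class, Bcas1, a marker of early myelinating cells, was at 1631, 2012 and 2311 in HT lithium libraries, 1549, 1979 and 2508 in HT fluoxetine, 1665, 2025 and 2629 in HT vehicle and 1719, 2123 and 2815 in WT vehicle libraries. Enpp6, a choline phosphodiesterase that marks newly formed oligodendrocytes, was at 136, 199 and 257 in HT lithium libraries, 165, 191 and 206 in HT fluoxetine, 135, 193 and 259.9 in HT vehicle and 164, 203 and 283 in WT vehicle libraries. The medians of these 2 genes were highest in WT vehicle libraries, and all arms overlapped.

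Of the signalling class, Lpar1, a receptor for lysophosphatidic acid, was at 489.6, 584 and 974 in HT lithium libraries, 579, 610.3 and 732 in HT fluoxetine, 465, 616 and 839 in HT vehicle and 487, 664 and 750.3 in WT vehicle libraries. Prr5l, an mTOR complex partner, was at 140.1, 205 and 228 in HT lithium libraries, 131, 155 and 176 in HT fluoxetine, 127, 171 and 254 in HT vehicle and 177, 201 and 221 in WT vehicle libraries. The lowest and the highest Prr5l values both came from HT vehicle males, and the HT arms overlapped. Ppp1r14a, an inhibitor of myosin phosphatase, was at 84.8, 114 and 168 in HT lithium libraries, 74.5, 84.9 and 118 in HT fluoxetine, 79, 94.8 and 146 in HT vehicle and 88.9, 115 and 174 in WT vehicle libraries. Gpr37, a receptor that restrains oligodendrocyte differentiation in mice, was at 599, 840.5 and 884 in HT lithium libraries, 583, 651 and 883 in HT fluoxetine, 618, 698 and 1113 in HT vehicle and 609, 803 and 989 in WT vehicle libraries. The arms overlapped in both.

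Car2, a carbonic anhydrase, was at 2699.5, 2941 and 3209 in HT lithium libraries, 2514, 2716 and 2998 in HT fluoxetine, 2263, 2602 and 3236 in HT vehicle and 2559, 2880.2 and 3257 in WT vehicle libraries. It was the steadiest of the 32 genes, with a highest library 1.44 times its lowest. Adamts4, a matrix protease, was at 401, 598 and 664 in HT lithium libraries, 412, 468 and 602 in HT fluoxetine, 348, 458 and 751 in HT vehicle and 386, 556 and 757 in WT vehicle libraries. Trf, transferrin, which carries iron, was at 1817, 2963 and 3725 in HT lithium libraries, 2101, 2660.5 and 3189 in HT fluoxetine, 1733, 2489.5 and 3916 in HT vehicle and 2259, 2867 and 4635 in WT vehicle libraries. Both were highest in WT vehicle female 1 and lowest in HT vehicle male 2. Cryab, a small heat shock protein, ran from 904 to 1388 over the 24 libraries, and Hapln2, a link protein at nodes of Ranvier, from 114 to 414. Tmem125, a membrane protein of little-known role, was at 103, 141 and 188 in HT lithium libraries, 69.5, 102 and 135 in HT fluoxetine, 86.9, 131 and 207 in HT vehicle and 89.5, 116 and 189 in WT vehicle libraries. Evi2a, another, was at 299, 327 and 361 in HT lithium libraries, 261, 299 and 369 in HT fluoxetine, 276, 343 and 481 in HT vehicle and 277, 335 and 411 in WT vehicle libraries. Both had their lowest values in HT fluoxetine and their highest in HT vehicle libraries. Cnp, Nkx6-2, Cryab, Adamts4 and Evi2a each overlap a measured gene on the opposite strand, and Mobp one on the same strand. The kit keeps the strand, but the counting setting is not given in the sources used here, so their counts are less certain.

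**Figure D1:**
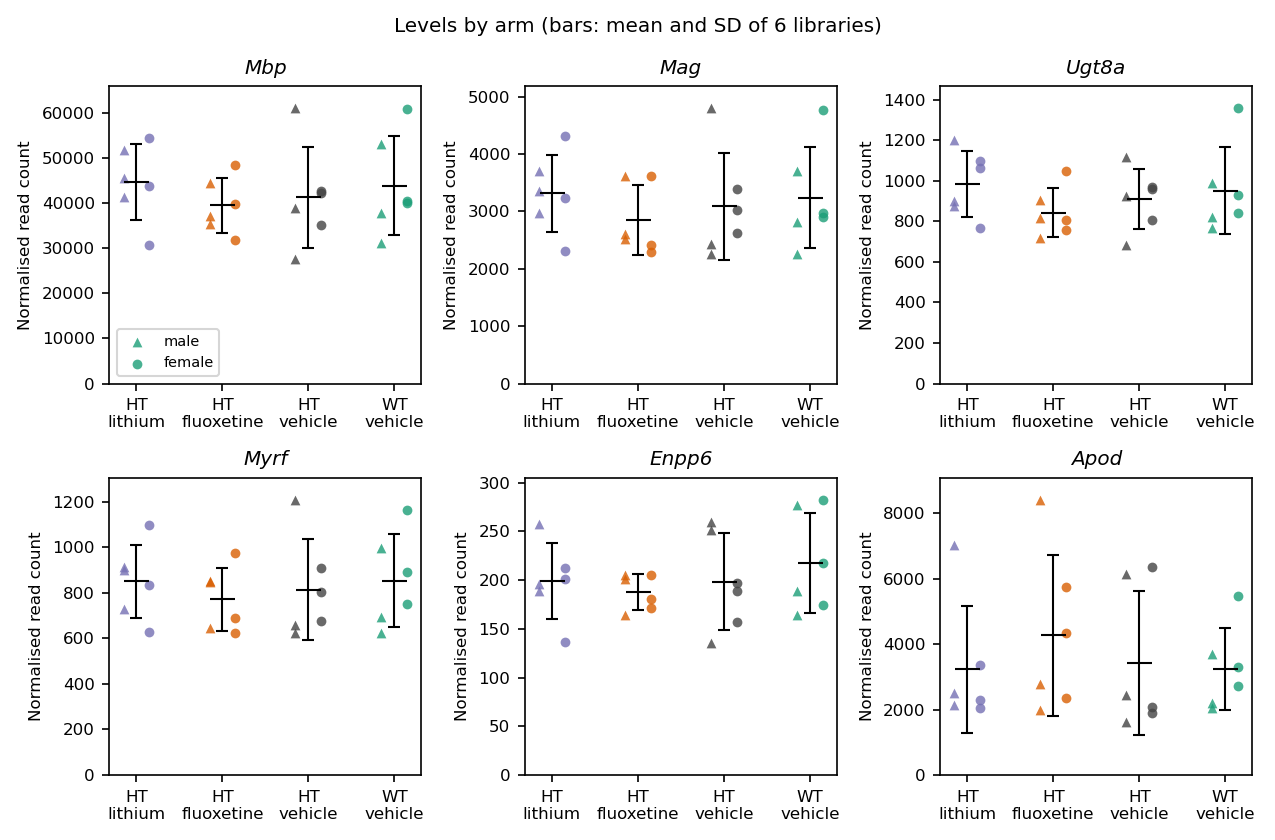
Normalised read counts (y axis, from 0) of Mbp, Mag, Ugt8a, Myrf, Enpp6 and Apod in the 4 arms (x axis), with triangles for male and circles for female libraries and bars for mean and SD of 6 libraries. The arms overlap in every panel, and Apod spreads from 1624 to 8411 with at least 1 high library in each arm.

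The comparison of HT vehicle with WT vehicle libraries asks whether the Dyrk1a allele is accompanied by different myelin transcript levels. No myelin gene was called between HT vehicle and WT vehicle libraries. Mbp averaged 41274 ± 11190.5 in HT vehicle and 43882 ± 10944 in WT vehicle libraries (SD, n = 6 each), a log2 fold change of -0.094 ± 0.19 (SE), with a 95% interval of -0.49 to 0.30. The supply gene Car2 and the signalling genes Ppp1r14a and Prr5l had the lowest p-values, all with values below 0 and none past the threshold. Limma's test, with Benjamini-Hochberg adjustment over 16825 genes at 0.05, called 0 of 32 members and 0 (0%) of all genes, and 0 members and 455 genes (2.7%) had an unadjusted p under 0.05. On the recovered reads edgeR and DESeq2 called 0 members and 0 genes.

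Car2 averaged 2715 ± 399 in HT vehicle and 2913 ± 274 in WT vehicle libraries, a log2 fold change of -0.11 ± 0.08 (limma, adjusted p = 1). For Ppp1r14a the change was -0.25 ± 0.19, with 103 ± 24.3 in HT vehicle and 123 ± 30.2 in WT vehicle libraries (limma, adjusted p = 1). For Prr5l it was -0.17 ± 0.13, with 178 ± 42 in HT vehicle and 198 ± 17.8 in WT vehicle libraries (limma, adjusted p = 1). None of the 3 differed beyond the spread between libraries, and in each the ranges overlapped. The median log2 fold change of the 32 members was -0.083, positive in 5 of 32, beside -0.0024 over all genes tested. By class the median was -0.076 for structural, -0.055 for lipid, -0.13 for signalling, -0.19 for supply, 0.034 for transcription, 0.059 for other membrane and -0.13 for newly formed members, Enpp6 being at -0.14 ± 0.17 and Bcas1 at -0.12 ± 0.14. The member median was -0.22 without HT vehicle male 1, 0.019 without HT vehicle male 2 and 0.005 without WT vehicle female 1, so its sign rested on single libraries.

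The fluoxetine arm was set against HT vehicle libraries to ask what the drug changes in HT mice. No myelin gene was called, and the 2 genes that were called in the whole table, Ndufs3 and P4ha1 (named after their values were seen), are not members. Among the genes of compact myelin, Mbp was at -0.036 ± 0.19 and Mobp at -0.0092 ± 0.22 on the log2 scale, while Opalin, the membrane gene Tmem125 and the homeobox gene Nkx6-2 (-0.32 ± 0.22) lay farthest below 0, without passing the test. Limma called 0 of 32 members (0 at an unadjusted p under 0.05) where 2 of 16825 genes (0.0119%) were called and 961 (5.71%) had an unadjusted p under 0.05, and edgeR and DESeq2 called 0 members.

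Tmem125 averaged 101 ± 26 in HT fluoxetine and 138 ± 43.6 in HT vehicle libraries, a log2 fold change of -0.42 ± 0.23 (limma, adjusted p = 0.927), and 6 of 6 fluoxetine libraries lay below the HT vehicle mean. Evi2a was at -0.20 ± 0.12 (305 ± 41.4 in HT fluoxetine and 353 ± 69.7 in HT vehicle libraries, adjusted p = 0.982 by limma). Opalin was at -0.33 ± 0.22 (252 ± 77.5 in HT fluoxetine and 318 ± 108 in HT vehicle libraries, adjusted p = 0.983 by limma). In all 3 genes the ranges of the arms overlapped. Values lay below 0 for 24 of 32 members, and their median was -0.076, beside -0.0013 for all genes. Medians by class were -0.058 for structural, -0.093 for lipid, -0.14 for signalling, 0.016 for supply, -0.057 for transcription, -0.31 for other membrane and -0.032 for newly formed members. Apod stood on the other side at 0.35 ± 0.42, with the median of olfactory bulb genes at 0.71 in the same comparison, and the part of the bulb in it was not tested. The member median was -0.018 within batch P40_L1, 0.051 without HT vehicle male 1, -0.17 without HT vehicle male 2 and -0.0013 without the Drd2/Ttr-high libraries.

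For lithium the question was the same, with every lithium library in the other batch from every HT vehicle library, so that drug and batch can be told apart only through the 1 fluoxetine library that shared the lithium batch. No myelin gene was called, and the 2 genes called in the table, Rpl15-ps3 and Gm28048 (named after their values were seen), are a pseudogene and a predicted gene. All 11 structural genes, all 3 transcription factors and all 5 supply genes had values above 0, none past the test, from 0.007 ± 0.12 for Cryab to 0.23 ± 0.18 for Adamts4, except that Opalin, Tspan2 and Cryab lay below 0 in edgeR and DESeq2. Mbp averaged 44636 ± 8389 in HT lithium and 41274 ± 11190.5 in HT vehicle libraries, a log2 fold change of 0.13 ± 0.19 with a 95% interval of -0.26 to 0.53. Limma called 0 of 32 members (0 at an unadjusted p under 0.05), where 2 of 16825 genes (0.0119%) were called and 463 (2.75%) had an unadjusted p under 0.05, and edgeR and DESeq2 called 0 members.

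Car2 averaged 2958 ± 207 in HT lithium and 2715 ± 399 in HT vehicle libraries, a log2 fold change of 0.13 ± 0.08, with 5 of 6 lithium libraries above the HT vehicle mean. Gal3st1 was at 0.15 ± 0.10 (275 ± 31.7 in HT lithium and 247 ± 27.7 in HT vehicle libraries), and Adamts4 averaged 572 ± 96 in HT lithium and 499 ± 145 in HT vehicle libraries. The limma adjusted p was 1 for each of the 3, and the ranges overlapped. The median of the 32 was 0.11, positive in 27 of 32, beside -0.00089 for all genes, and by class it was 0.12 for structural, 0.11 for lipid, 0.13 for signalling, 0.17 for supply, 0.082 for transcription, 0.0081 for other membrane and -0.012 for newly formed members. Below 0 were Aspa (-0.12 ± 0.18), Evi2a (-0.10 ± 0.12), Bcas1 (-0.042 ± 0.14), Lpar1 (-0.018 ± 0.17) and Apod (-0.013 ± 0.42), none past the test. The median turned below 0, to -0.0088, without HT vehicle male 2, and it was 0.0091 without HT lithium female 1 and 0.017 without the bulb-high libraries, and 0.23 without HT vehicle male 1. With batch as a term, which 1 fluoxetine library estimates, it was 0.39.

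**Figure D2:**
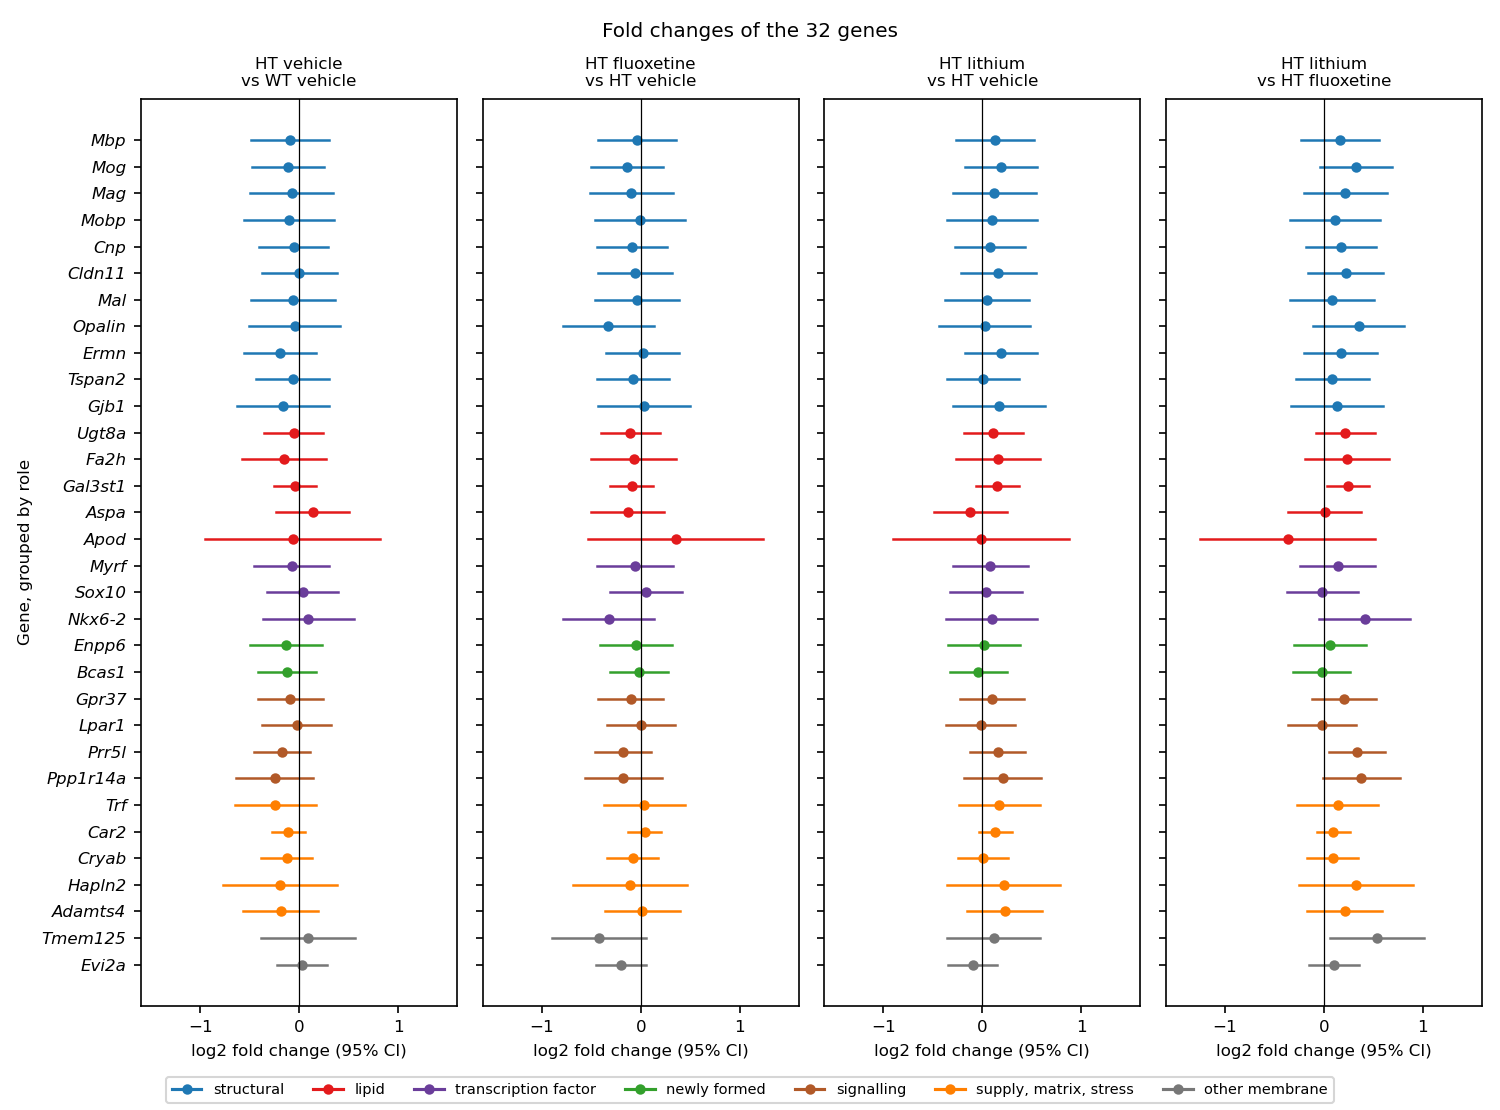
Log2 fold changes (x axis, points) with 95% intervals (bars) of the 32 genes (y axis, grouped and coloured by role) in 4 comparisons from limma. All but 3 intervals cross 0, the exceptions being Prr5l, Tmem125 and Gal3st1 for lithium against fluoxetine, and the points lie mostly right of 0 in the 2 lithium panels and left of it in the other panels.

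Of the 5 comparisons, lithium against fluoxetine, both in HT mice, had the member median farthest from 0, and no myelin gene was called. Prr5l, Tmem125 and Gal3st1 had unadjusted p-values under 0.05 and adjusted ones far above it. All 11 structural genes had values above 0, from 0.087 ± 0.20 for Mal and 0.17 ± 0.19 for Mbp to 0.35 ± 0.22 for Opalin, none past the test, and Apod was at -0.37 ± 0.42. Limma called 0 of 32 members and edgeR and DESeq2 called 0, and 3 members had an unadjusted p under 0.05, where 4 of 16825 genes (0.0238%) were called and 941 (5.59%) had an unadjusted p under 0.05. The 4 called genes, named after their values were seen, were Ndufs3, Ndufa4 and Ndufb6 of respiratory complex I and Cops9, none a member.

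Prr5l averaged 197 ± 30.6 in HT lithium and 154 ± 15.9 in HT fluoxetine libraries, a log2 fold change of 0.34 ± 0.13 (limma, adjusted p = 0.806), with 5 of 6 lithium libraries above the fluoxetine mean. Tmem125 averaged 146 ± 28.7 in HT lithium and 101 ± 26 in HT fluoxetine libraries, a change of 0.54 ± 0.23 (limma, adjusted p = 0.854), with 6 of 6 above. Gal3st1 averaged 275 ± 31.7 in HT lithium and 231 ± 20.5 in HT fluoxetine libraries, a change of 0.24 ± 0.10 (limma, adjusted p = 0.858), with 6 of 6 above. The unadjusted limma p-values were 0.0217, 0.0278 and 0.0284 in this order. None of these 3 held after adjustment, and in each the ranges overlapped. The member median was 0.17, positive in 28 of 32, beside -0.0028 for all genes, and by class 0.17 for structural, 0.22 for lipid, 0.27 for signalling, 0.14 for supply, 0.14 for transcription, 0.32 for other membrane and 0.02 for newly formed members. Bcas1 was at -0.024 ± 0.14 and Enpp6 at 0.063 ± 0.17, and the difference between these 2 and the structural genes was not tested. Leaving out 1 library at a time gave medians of 0.087 (without HT lithium female 1) to 0.28 (without HT lithium female 2), and 0.085 without the bulb-high libraries.

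Batch could be held fixed in this comparison only through HT fluoxetine female 3, the lone P40_L2 library that was not lithium. It had the lowest member level of the fluoxetine arm, at -0.30 in mean log2 deviation over the 32 genes, and held the lowest of all 24 values for 6 of them. Within P40_L2 the member median of the 3 lithium females against that 1 female library was 0.36, and with batch as a term it was 0.46. Without that library the median of lithium against fluoxetine was 0.11. The fluoxetine, lithium and genotype comparisons share the HT vehicle libraries, and lithium against fluoxetine shares its libraries with the 2 drug comparisons, so the 4 medians are not separate results.

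No myelin gene was called between males and females. Mbp was at -0.023 ± 0.13 in males against females, and the members with the lowest p-values were Car2 at 0.092 ± 0.057 (2931 ± 286 in males and 2747 ± 250.3 in females, SD, 12 libraries each), Aspa at 0.14 ± 0.12 and Fa2h at -0.14 ± 0.14, each with a limma adjusted p of 1. Limma called 0 of 32 members (0 at an unadjusted p under 0.05), and edgeR and DESeq2 called 0, against 14 of 16825 genes (0.0832%), which include genes of the Y chromosome and Xist. Limma's tests of a sex difference in the 4 drug or genotype effects called 0 members and 0 genes (0% in each), with 0 members and 180 to 470 genes at an unadjusted p under 0.05. In HT vehicle against WT vehicle the effect in males minus that in females had a member median of 0.20, positive in 29 of 32. The median over all genes tested was 0.0039, and the median standard error of a member was 0.357. Most members moved together between libraries, so their signs are not separate results, and no other tool was run on this contrast.

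Genes of the stages before the mature cell were not called either. Of 9 further genes of newly formed oligodendrocytes, 0 were called in any comparison, and the 2 with the lowest p-values were, on the log2 scale, Cnksr3 (-0.29 ± 0.12) and Rras2 (0.13 ± 0.07) for lithium against fluoxetine, Cnksr3 (0.22 ± 0.12) and Itpr2 (-0.078 ± 0.049) for fluoxetine against HT vehicle, and Rras2 (0.10 ± 0.07) and Casr (0.35 ± 0.28) for HT against WT vehicle. The median log2 fold change of the 9 was 0.039 in HT vehicle against WT vehicle, 0.044 for fluoxetine and -0.014 for lithium against HT vehicle. Of 23 further myelin genes 0 were called, with medians of -0.035, -0.043 and 0.064 in the same order. Ninj2, an adhesion protein gene, had the lowest p-value of them in all 5 comparisons, with 24.5 ± 3.93 in HT lithium and 15.6 ± 4.23 in HT fluoxetine libraries, a change of 0.64 ± 0.22 (limma, adjusted p = 0.76). Zfp488 was next to it in HT against WT vehicle (0.20 ± 0.13), Pllp in fluoxetine (-0.19 ± 0.13) and Sirt2 in lithium (-0.055 ± 0.06) against HT vehicle, Qdpr in lithium against fluoxetine (0.15 ± 0.088) and Elovl1 between the sexes (-0.075 ± 0.084). Of 12 precursor genes 0 were called, and 0 in the lists of Schwann cells, astrocytes, excitatory, striatal and olfactory bulb neurons, microglia, choroid plexus and meningeal fibroblasts. Pdgfra, the growth factor receptor of precursors, was at 0.11 ± 0.066 in HT against WT vehicle, Vcan at 0.21 ± 0.14 for fluoxetine and C1ql1 at 0.51 ± 0.25 for lithium against HT vehicle, Olig1 at 0.11 ± 0.09 for lithium against fluoxetine, and Cspg4 and Gpr17 at -0.15 ± 0.068 and -0.10 ± 0.062 in males against females.

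The myelin genes varied between libraries of one group. Mean log2 deviation from a gene's own mean, taken over the 32, ran from -0.36 to 0.32 in HT lithium, -0.30 to 0.14 in HT fluoxetine, -0.46 to 0.44 in HT vehicle and -0.25 to 0.47 in WT vehicle libraries, so the arms overlapped. The SD of log2 values within the 8 groups had a median of 0.331 over the members, from 0.144 for Car2 to 0.793 for Apod, against 0.182 over all genes tested, and 30 of 32 members lay above that value. Of each member's variance over the 24 libraries, the arms held a median of 8.55%, from 0.375% for Lpar1 to 32.4% for Prr5l. The ratio of the highest to the lowest library ran from 1.44 to 5.18, with a median of 2.10. The standard error of a member's log2 fold change between arms was accordingly 0.179 in the median, against 0.103 over all genes. In bulk tissue, fewer oligodendrocytes and less RNA per oligodendrocyte cannot be told apart.

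The same libraries were high or low for most members. WT vehicle female 1, with a mean log2 deviation of 0.47 over the 32 genes, lay above the median of the 24 libraries for 32 of 32 and was the highest for 10. HT vehicle male 1 (0.44) lay above it for 31 and was the highest for 14. Within the same sex and arm, HT vehicle male 2 (-0.46) lay above the median for 0 of 32 and was the lowest for 17. HT lithium female 2 (-0.36) also lay above it for 0, beside HT lithium female 1 (0.32) with 31. Libraries near both ends of the myelin level were thus found inside single groups of 3. The 2 libraries highest for myelin were also the 2 highest in Drd2, and what part tissue of the striatum has in their myelin level was not tested.

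**Figure D3:**
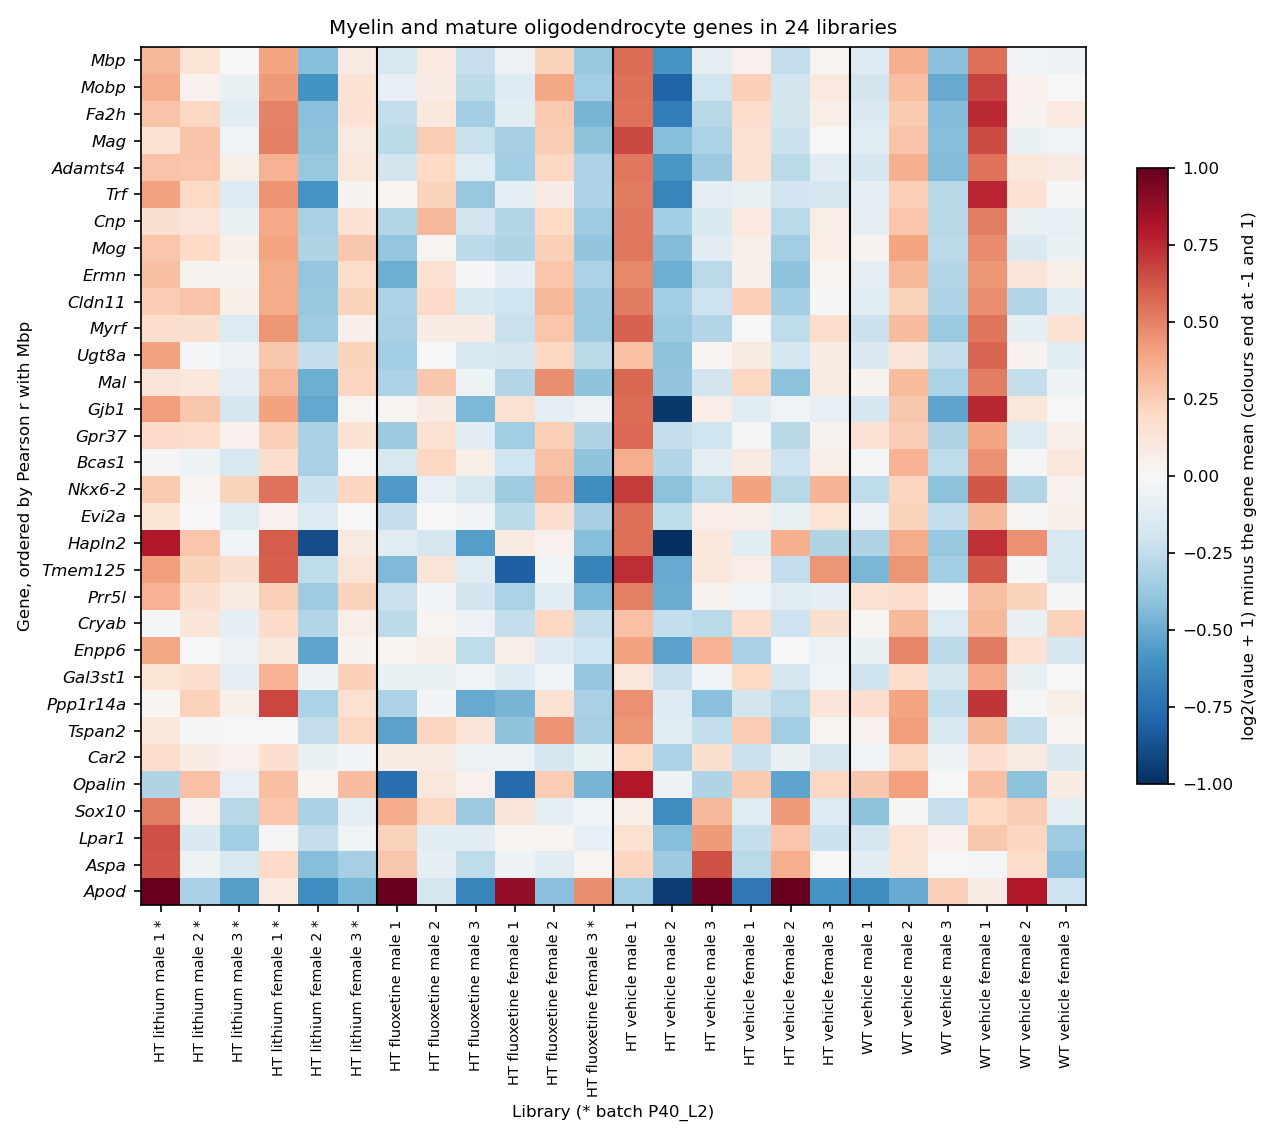
Log2(value + 1) minus the gene's mean (colour, ending at -1 and 1) for the 32 genes (rows, ordered by correlation with Mbp) in 24 libraries (columns by arm, males before females, an asterisk for batch P40_L2). Columns such as HT vehicle male 1 and HT vehicle male 2 are mostly red or mostly blue. The last rows, Opalin, Sox10, Lpar1, Aspa and Apod, follow Mbp less closely, from r = 0.521 for Opalin to 0.00029 for Apod. HT vehicle male 2 still lies above the median for 0 of the 32 genes.

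Mbp was taken as the measure of this shared level. Over 24 libraries, the log2 values of the other 31 members correlated with it at a median Pearson r of 0.846, and 21 exceeded 0.8, as did 77 of 16824 genes (0.458%). In permutation tests with 100000 resamples, adjusted over 139 relations, 28 of the 31 had an adjusted p under 0.05 by Pearson's r and 27 by Spearman's rho as well. These tests were not run over all genes, so no background share stands beside those counts. An r over 0.6 was held by 26 of the 31 and by 398 of 16824 genes (2.37%). Mobp (r = 0.969, rho = 0.963), Fa2h (r = 0.968, rho = 0.977) and Mag (r = 0.94, rho = 0.958) were the 3 closest members, each with an adjusted permutation p of 3.7e-05 for r, from the smallest p the resamples can give. A structural protein, a lipid enzyme and an adhesion protein thus followed Mbp. The median r was 0.847 within P40_L1 (17 libraries) and 0.939 within P40_L2 (7 libraries). Without the 2 libraries farthest from the median of Mbp, HT vehicle male 1 and HT vehicle male 2, r was 0.961 for Mobp, 0.958 for Fa2h and 0.932 for Mag.

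By role, the 10 other structural genes had a median r of 0.916 with Mbp, with Opalin (0.521) and Tspan2 (0.681) at the low end. The lipid class was divided: Fa2h, Ugt8a (0.906) and Gal3st1 (0.788) followed Mbp, whereas Aspa (0.322, adjusted permutation p = 0.18) and Apod (0.00029, adjusted permutation p = 1) were not shown to. Of the transcription factors, Myrf (0.91) and Nkx6-2 (0.846) followed it more closely than Sox10 (0.479), and of the signalling genes Gpr37 (0.875), Prr5l (0.81) and Ppp1r14a (0.786) more closely than Lpar1 (0.406), though differences between these r were not tested. Trf (0.935), Adamts4 (0.936), Hapln2 (0.835) and Cryab (0.802) of the supply class were near the structural genes, and Car2 stood at 0.642.

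Both newly formed members also followed Mbp. Bcas1 had r = 0.868 (rho = 0.849) and Enpp6 r = 0.792 (rho = 0.7) with Mbp. Over the same 24 libraries the 9 further genes of newly formed oligodendrocytes had a median of 0.318 and 0 exceeded 0.6 (the difference was not tested). Among the 18 libraries that were not bulb-high, r was 0.896 for Bcas1 and 0.883 for Enpp6. There it was 0.789 for Rnf122, 0.672 for Tmem163, 0.638 for Tns3, 0.603 for Cnksr3, 0.578 for Casr and 0.564 for Tcf7l2. For Itpr2, Fyn and Rras2 it was 0.206, 0.086 and -0.138. Over all 24 libraries the 12 precursor genes had a median of 0.14, with Pdgfra at 0.0898, except Olig1 (0.944) and Olig2 (0.672), factors that mature oligodendrocytes also express. The 23 further myelin genes had a median of 0.778. By rank over the 16824 genes, 5 of the 10 most like Mbp in Pearson r over 24 libraries were members, namely Mobp, Fa2h, Mag, Adamts4 and Trf. All these points share their libraries and dissected pieces.

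The olfactory bulb gene Doc2g, taken as a second measure, ran from 54.4 to 6972. Apod had r = 0.925 with it (rho = 0.919, adjusted permutation p = 3.7e-05), and its levels were 5455 to 8411 in the 6 bulb-high libraries and at most 4324 in the other 18. Sox10 had r = 0.808, Lpar1 0.721 and Aspa 0.685, with adjusted permutation p-values of 3.7e-05, 0.00021 and 0.0004. Mbp itself stood at 0.0859 (adjusted permutation p = 0.76). The 4 members lowest in r with Mbp were thus the 4 highest in r with Doc2g. Such values of r with Doc2g were common in the table: an r over 0.8 was held by 2 of 32 members (6.25%) and by 6.87% of all genes, and an r over 0.6 by 4 of 32 members and by 18.9% of all genes, so the members' shares were not above the background. Among the 18 libraries that were not bulb-high, r with Doc2g was 0.84 for Apod, 0.63 for Sox10, 0.481 for Lpar1 and 0.421 for Aspa, and among the 6 bulb-high ones it was 0.709, 0.162, -0.0463 and -0.223 in the same order. Without HT fluoxetine male 1 and HT lithium male 3, the libraries farthest from the median of Doc2g, r was 0.939 for Apod and 0.786 for Sox10, and within batches P40_L1 and P40_L2 it was 0.958 and 0.865 for Apod. Within those 18 the r of Sox10 with Mbp was 0.773, of Lpar1 0.658, of Aspa 0.589 and of Apod 0.164.

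Opalin and Tspan2 ran the other way, with r = -0.621 (rho = -0.441, adjusted permutation p = 0.0026 for r and 0.054 for rho) and -0.501 (rho = -0.479, adjusted permutation p = 0.022 for r and 0.034 for rho) with Doc2g over 24 libraries. Opalin was at 172 in HT fluoxetine male 1, 169.5 in HT fluoxetine female 1 and 201 in HT vehicle female 2, all bulb-high and its 3 lowest values. Among the 18 other libraries r was -0.0385 for Opalin and -0.0941 for Tspan2, so both relations rested on the bulb-high libraries. The promoter of Apod printed above was matched by the same 2 searches as those of Cnp, Mag and Hapln2. It lacks CTGGCAC, which the other promoters printed hold, a form that was not searched for on its own. Mobp and Cldn11, with no MYRF word in the windows searched, had r = 0.969 and 0.912 with Mbp. Aspa, also without one, had 0.322. Any link of these words to r was not tested. Cnp, Mag and Hapln2 stood at r = -0.119, -0.0951 and 0.523 with Doc2g and at 0.932, 0.94 and 0.835 with Mbp.

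**Figure D4:**
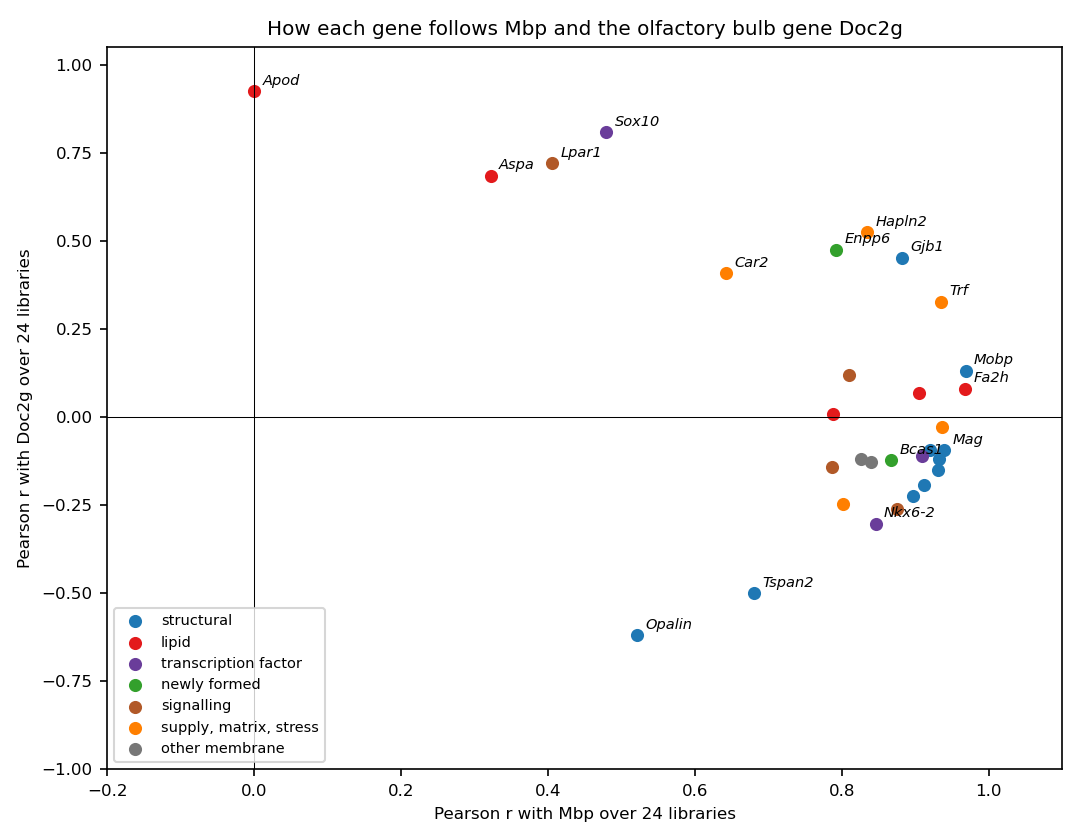
Pearson r with Mbp (x axis) and with Doc2g (y axis) over 24 libraries for the 31 other genes, coloured by role. Most lie at the right, between -0.303 (Nkx6-2) and 0.523 (Hapln2) on the y axis, with Apod, Sox10, Lpar1 and Aspa at the upper left and Opalin and Tspan2 below.

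**Figure D5:**
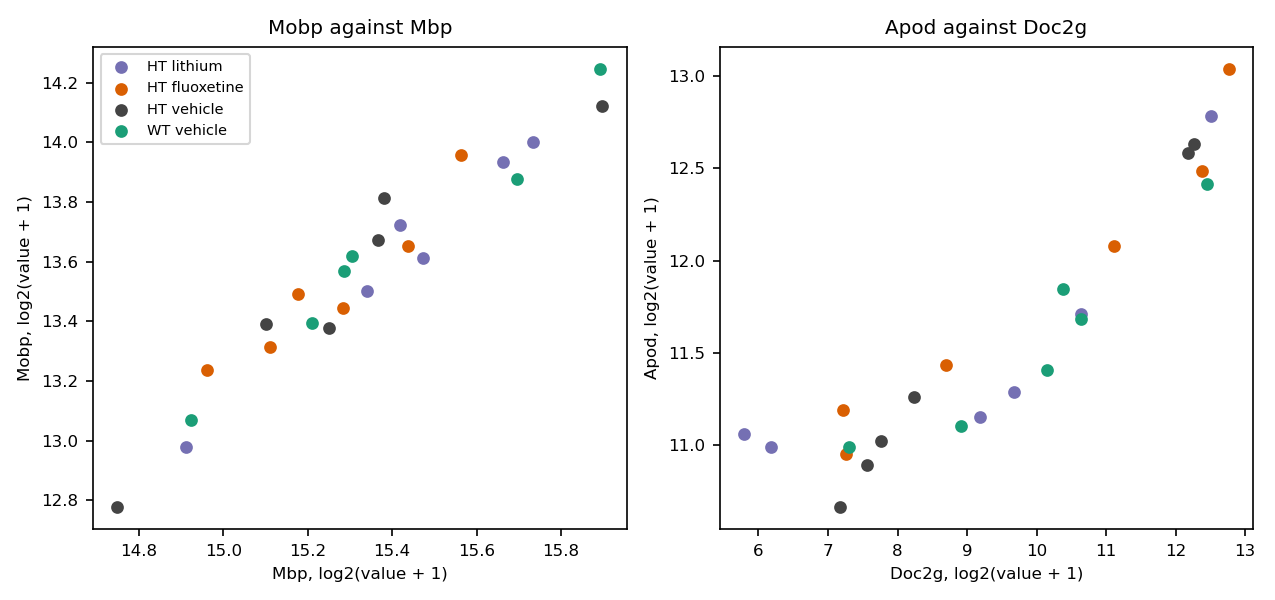
Log2(value + 1) of Mobp against Mbp (left) and of Apod against Doc2g (right) in 24 libraries coloured by arm. Mobp follows Mbp across the whole range in every arm, and Apod is highest in the libraries highest in Doc2g, from each arm.

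With Drd2 as the measure, 31 of 32 members had a positive r, with a median of 0.601, and 26 had an adjusted permutation p under 0.05. The same shares over all genes were not computed for Drd2, so these counts are not shown to be particular to myelin genes. For Mbp r was 0.689 (rho = 0.61, adjusted permutation p = 0.00024), 0.803 within P40_L1 and 0.696 within P40_L2, and 0.5 without HT vehicle male 1 and WT vehicle female 1. For Mag it was 0.718 and 0.513 without them, and for Apod -0.0579. The median log2 fold change of 8 striatal genes was 0.18 in HT vehicle against WT vehicle, -0.51 for fluoxetine and -0.46 for lithium against HT vehicle, while the member medians without the Drd2/Ttr-high libraries were -0.17, -0.0013 and 0.26 in the same order. The part of the striatum in the myelin levels was not tested.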

How the data were processed

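RNA was extracted from prefrontal cortex and libraries were made with a TruSeq Stranded mRNA kit, per the labels' protocols. The submitters' processing notes name Salmon 0.11.2, R 3.6.0, DESeq2 1.19.11 and GRCm38, without a role for each. The deposited values are gene-level signal, read counts divided by a size factor of each library by the authors: 100% of values were whole multiples of what 1 read was worth, within 0.01 read, which gave the depths of 24133344 to 35940460 reads. Counting error shrinks with depth. Gene names and exon lengths came from GENCODE M21 (18227 of 18240 IDs matched).

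Values were tested as log2(value + 1) with limma 3.58.1 (trend) in R 4.3.3 on 16825 genes with a mean of at least 10, leaving out 1415, over 8 group means (arm by sex) of all 24 libraries, so fold changes of low genes are understated. P-values were two-sided, adjusted by Benjamini-Hochberg over all genes tested, with a threshold of 0.05. edgeR 4.0.16 (quasi-likelihood) and DESeq2 1.42.0 were run on the recovered reads as alternatives, along with another pseudocount and filter, TMM scaling, batch terms, single sexes and left-out libraries. Levels per kb divide the mean by the exon length. Correlations used log2 values and permutation tests (Python 3.11.15, scipy 1.17.1). The limma step was tested on simulated data with 200 changed genes. No pair of libraries agreed within sampling noise (smallest chi-square per gene 4.53, where noise gives 1).

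The genes, their role classes, the other cell-type lists and the tests were chosen with earlier results of these data known. Fold changes with a standard error are given for the 3 members with the smallest p in each comparison. The highest per kb in each class and both newly formed members have their ranges by arm. Of these, Mbp has a fold change in every comparison, Sox10 in none and the others in some. For the other lists of the lineage, up to 2 genes are named with fold changes in a comparison. Some genes of these lists are not reported here.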

Additional observations from a re-analysis of the deposited data

Results flagged for a closer look

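In 5 of 128 groups of 6 libraries (32 genes in 4 arms), a single library stood farther from its nearest neighbour than Dixon's 95% critical value for 6 samples allows, and chance flags about 1 group in 20. Apod was at 7037 in HT lithium male 1, a bulb-high library, against 2032 to 3353 in the other HT lithium libraries. Lpar1 was at 974.3 in the same library, against 489.6 to 627.8 in the others. Ugt8a was at 1360 in WT vehicle female 1, against 770.0 to 987.8 in the other WT vehicle libraries. Gpr37 was at 1113 in HT vehicle male 1, against 618.0 to 769.9 in the other HT vehicle libraries. Gal3st1 was at 191.5 in HT fluoxetine female 3, the fluoxetine library of batch P40_L2, against 228.6 to 246.2 in the other HT fluoxetine libraries.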

How the results depend on the processing

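None of the 32 genes was called in any of the 5 comparisons under any alternative run with limma, edgeR or DESeq2, and medians over the 32 are given beside the results where 1 library turns them. With batch as a term the member median was 0.39 for lithium against HT vehicle and 0.46 for lithium against fluoxetine, where the fits without it gave 0.11 and 0.17, and 1 fluoxetine library alone separates batch from drug there. Counts of called genes in the whole table were small and unstable. For lithium against HT vehicle (2 called) they were 0 with pseudocount 5, with the replicate block, in females, with edgeR and without the Drd2/Ttr-high libraries, 1 with a mean of at least 50, with batch as a term, in males and without the bulb-high libraries, 4 with only the groups compared, and 0 in each of 12 fits with 1 library left out. For fluoxetine against HT vehicle (2) they were 0 with the replicate block, with only the groups compared, within P40_L1, in either sex and without the bulb-high or the Drd2/Ttr-high libraries, 1 with batch as a term, 16 with DESeq2, 4 with the bulb list as a covariate and 0 to 2 with 1 library left out. For lithium against fluoxetine (4) they were 7 with the replicate block, 1 with batch as a term, 0 with only the groups compared, in either sex, within P40_L2 and without the Drd2/Ttr-high libraries, 30 with DESeq2, 2 without the bulb-high libraries, 12 with the bulb list as a covariate and 0 to 6 with 1 library left out. For HT vehicle against WT vehicle (0) they were 3 with the bulb list as a covariate and 0 to 1 with 1 library left out (1 without WT vehicle male 2). The cause of these changes in counts was not tested. Signs of single members, all uncalled, changed in 63 of 384, 63 of 384, 55 of 384 and 19 of 384 values with 1 library left out, for the genotype, fluoxetine, lithium and lithium-against-fluoxetine comparisons, and the smallest adjusted p of any member under any alternative was 0.379. Replicate numbers are not taken to pair the libraries, since the correlation of deviations was not over 0.1 in every pair of any comparison. It exceeded 0.1 in 5 of 6 pairs for HT vehicle against WT vehicle (-0.157 to 0.591), 1 of 6 each for fluoxetine (-0.695 to 0.267) and lithium (-0.57 to 0.199) against HT vehicle, and 5 of 6 for lithium against fluoxetine (0.0547 to 0.724). The replicate block left every member median as it was, which it had to, since every group holds the same replicate numbers. The settings that leave out bulb-high or Drd2/Ttr-high libraries, the bulb covariate and the fit within P40_L2 were chosen after seeing the data. These values limit what 6 libraries per arm can show. With a median standard error of 0.179 for a member, differences of that size and larger ones go undetected. The change of 0.54 for Tmem125 in lithium against fluoxetine, for example, had a limma adjusted p of 0.854.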
